A study of Rattus norvegicus with 6 samples.

Results

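The sites described here are the exonic CpG sites of the rat dorsal root ganglion (DRG) that lie outside promoters, CpG islands and island shores. They were chosen by the flags of the authors' annotated table, with the exon flag set and the promoter, island and shore flags not set, and no methylation value entered the choice. There were 1011 such sites among 32674 annotated nuclear sites. By nearest annotated transcript start they belonged to 489 genes, of which 199 had 1 site, 152 had 2 and the rest had 3 to 9.

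The DRG holds the cell bodies of the sensory neurons of the spinal nerves, together with satellite glia, Schwann cells and other cells. All animals were male Sprague-Dawley rats, 8 to 9 weeks old and about 220 g in weight, described as adult. The model of neuropathic pain was spinal nerve ligation (SNL), in which the L5 and L6 nerves of the left side had been tied. In the Sham group the operation had been done without a ligature, on the other side of the body per the labels. Each group had 3 libraries, all from 3 weeks after surgery. The labels do not say which libraries came from separate animals, so SNL and Sham libraries may share an animal, and the p-values measure only the spread between these libraries. The ganglia were read in bulk, so a change in the mix of cells and a change within a cell type cannot be told apart. Expression of marker genes was not measured, so the labelled tissue was not checked against them.

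Methylation of the cytosine in a CpG, written by DNA methyltransferases and removed through TET enzymes, is low at most active promoters and high across the bodies of many transcribed genes. In gene bodies it has been linked to transcription itself and to the silencing of internal start sites. CpGs in exons outside islands are therefore usually among the methylated part of a genome.

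Reduced representation bisulfite sequencing (RRBS) cuts DNA with MspI and reads the ends of the fragments, here as reads of 50 bases. A level is the percent of reads at a CpG that kept a cytosine, and differences are given in percentage points, SNL minus Sham. Every annotated site had at least 100 reads in each library. Coverage summed over listed CpGs ranged from 27247702 to 34293779 per library, where a read counts once for each CpG it covers. The median exonic site had a mean coverage of 217.3 reads, and 24 of the exonic sites (2.37%) had a mean above 1000 reads, against 3.66% of all annotated sites. Pairs of libraries correlated at 0.986 to 0.9915 over annotated sites. The library SNL 2 correlated more closely with Sham 2 (0.9909) than with SNL 1 (0.9892) or SNL 3 (0.9898). SNL 3 correlated with Sham 1 (0.9898) more closely than with SNL 1 (0.9887), so by this measure the libraries did not fully group by surgery.

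Exonic sites sat in short clusters near genes. Their median distance to the nearest start was 18.4 kb, against 35.3 kb for the 7378 intronic and 79.1 kb for the 19101 intergenic sites outside promoters, islands and shores. The median exonic site had 2 other listed CpGs within 100 bp, and 16.1% had none, whereas 34.3% of intronic and 33.1% of intergenic sites had none. Of the 1011 sites 862 lay downstream and 149 (14.7%) upstream of the start that names them. For the latter the exon flag must refer to another transcript, so a gene name here means the nearest start and not always the gene that holds the exon. A further 38 exonic sites also carried the intron flag. By chromosome, exonic sites made up 0.94% of annotated sites on chromosome X (4 of 424), and at the other end 4.58% on chromosome 1 (148 of 3229) and 4.74% on chromosome 20 (52 of 1098).

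Most exonic sites were highly methylated. The median level over the 6 libraries was 90.4% (quartiles 78.8% and 95.4%), against 85.7% for intronic, 84.8% for intergenic and 82.2% for all annotated sites. Levels above 95% were reached by 28% of exonic sites, and by 18.1% of intronic and 14.0% of intergenic sites. By level, 740 exonic sites (73.2%) were over 80%, 225 (22.3%) lay between 20 and 80%, and 46 (4.5%) were under 20%. Intermediate levels were rarer than among intronic sites (34.0%) and intergenic sites (33.3%). Libraries of a group differed least at exonic sites, with a median pooled SD of 1.9 points against 2.28 for intronic and 2.34 for intergenic sites. Within 20 to 80% the classes were closer in SD, at 3.46, 3.58 and 3.5 points.

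**Figure D1:**
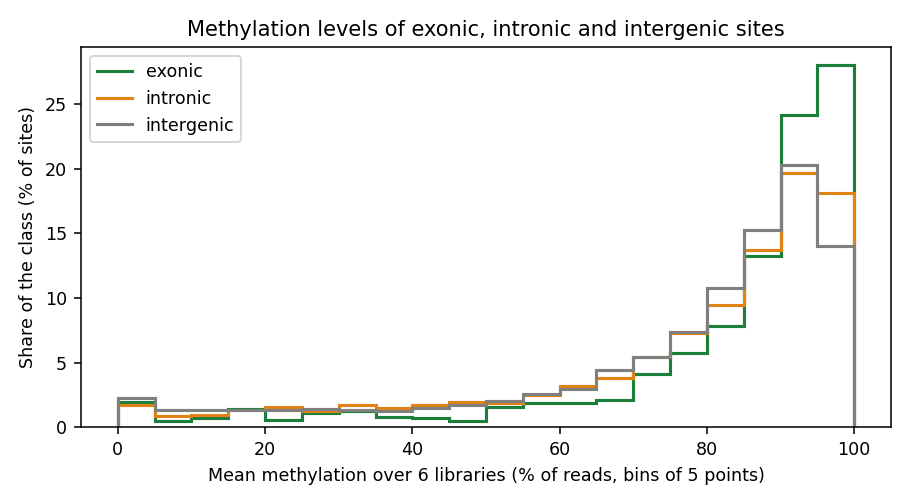
Share of the sites of each class (vertical axis, percent of the class) in bins of 5 points of mean methylation over the 6 libraries (horizontal axis) for 1011 exonic, 7378 intronic and 19101 intergenic sites. In the bin from 95 to 100% the exonic line stands at 28%, above the intronic line at 18.1% and the intergenic line at 14.0%.

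Exonic sites were more methylated than intronic and intergenic ones in every library. Mean exonic methylation was 82.23% in SNL 1, 81.29% in SNL 2 and 81.06% in SNL 3, and 81.36% in Sham 1, 81.95% in Sham 2 and 82.11% in Sham 3. SNL 1 was above all Sham libraries while SNL 2 and SNL 3 were below all of them. Within a library, exonic minus intronic methylation was 5.34 points ± 0.34 (SD over 6 libraries) and above 0 in 6 of 6. Exonic minus intergenic methylation was 6.32 points ± 0.54, also above 0 in 6 of 6. For both, the exact two-sided sign-flip test gave p = 0.03125, the smallest that 6 libraries allow (adjusted over the 2 comparisons, 0.03125). The libraries read the same sites, so this test covers the spread between libraries only. Among sites over 80% the gap was 1.09 points to intronic and 1.79 points to intergenic sites, and among sites of 20 to 80% it was 2.04 and 1.08 points, each above 0 in 6 of 6 libraries. Among sites under 20% it was -0.09 points to intronic sites and 0.33 points to intergenic sites, above 0 in 2 and 5 libraries.

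The exonic mean did not move beyond the spread of the libraries after SNL. The SNL libraries averaged 81.53% ± 0.62 and the Sham libraries 81.81% ± 0.39 (SD, n = 3), which differ by -0.28 points (two-sided exact permutation p = 0.6, with 0.1 the smallest that 3 against 3 allow). Intronic sites stood at 75.93% ± 0.9 and 76.72% ± 0.52, a difference of -0.79 points (exact permutation p = 0.3). Intergenic sites stood at 74.75% ± 0.89 and 75.95% ± 0.46, a difference of -1.21 points (exact permutation p = 0.2).

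The gap between the exonic mean and the intronic and intergenic means was wider in the SNL libraries. Each mean was taken over all sites of its class, not over sites near the exonic ones. Exonic minus intergenic methylation was 6.49, 6.83 and 7.02 points in SNL 1 to 3, and 5.91, 5.9 and 5.76 points in Sham 1 to 3. All SNL libraries were above all Sham libraries, with means of 6.78 ± 0.27 and 5.86 ± 0.09 (SD, n = 3), a change of 0.93 points (exact permutation p = 0.1, two-sided, the smallest possible). Exonic minus intronic methylation was 5.3, 5.62 and 5.87 points in SNL 1 to 3, and 5.23, 5.05 and 4.98 points in Sham 1 to 3. Here too the groups did not overlap, with a change of 0.51 points (exact permutation p = 0.1). Adjusted over the 2 comparisons both p-values stayed at 0.1, above 0.05, so neither change passed. The exonic values are shared by both comparisons.

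**Figure D2:**
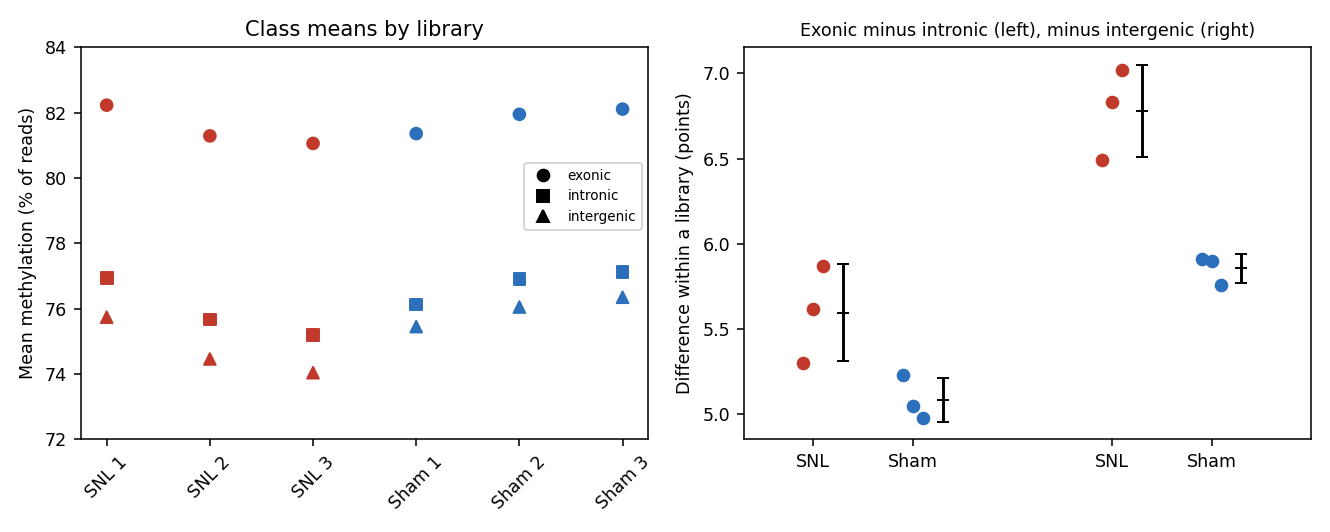
Left, mean methylation (percent of reads, axis from 72 to 84) of exonic, intronic and intergenic sites in each library, SNL in red and Sham in blue. Right, the exonic mean minus the intronic and the intergenic mean within each library (points), with group mean and SD as bars. The exonic means span 81.06 to 82.23%, and both gaps are larger in the 3 SNL libraries than in the 3 Sham libraries.

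Both gaps were also compared within sites of like level and like distance, a choice made after seeing the data. Among sites over 80% the change after SNL was 0.35 points against intronic and 0.75 points against intergenic sites, and among sites of 20 to 80% it was 0.91 and 1.47 points. The groups did not overlap in any of these 4 (exact permutation p = 0.1 each). Among sites under 20% the change was -0.12 points against intronic and -0.01 points against intergenic sites, and the groups overlapped in both (exact permutation p = 1.0 each). By distance from the nearest start, the change against intergenic sites was 0.13 points within 5 kb, 0.82 at 5 to 20 kb, 0.78 at 20 to 100 kb and 1.8 beyond 100 kb. The change against intronic sites was -0.09, 0.56, 0.39 and 1.43 points in the same order. Within 5 kb the groups overlapped in both comparisons, and beyond 100 kb, where 87 exonic sites lay, they overlapped in neither.

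Exonic methylation was higher with distance from the start and differed little between the groups at any distance. The rise was not particular to exonic sites. Sham means went from 71.21% within 5 kb to 80.43% beyond 100 kb at intronic sites, and from 69.58% to 78.55% at intergenic sites. The 159 exonic sites within 5 kb averaged 75.53% ± 0.5 in SNL and 76.5% ± 0.47 in Sham libraries (SD, n = 3), which differ by -0.97 points (exact permutation p = 0.2). At 5 to 20 kb the 384 sites averaged 79.45% and 79.6%, and at 20 to 100 kb the 381 sites averaged 84.53% and 84.79%. The 87 sites beyond 100 kb averaged 88.53% ± 0.77 and 88.16% ± 0.11, a difference of 0.37 points (exact permutation p = 0.8). By level, sites over 80% averaged 92.18% ± 0.46 after SNL and 92.49% ± 0.25 in Sham, those of 20 to 80% 61.29% ± 1.1 and 61.52% ± 0.84, and those under 20% 9.23% and 9.2%. None of the 8 means of exonic sites tested passed (adjusted p = 1.0 for each), and 3 libraries against 3 cannot pass such a test.

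At single CpGs, 4 of the 1011 exonic sites differed between SNL and Sham at an adjusted p under 0.05 (0.396%), 2 lower and 2 higher after SNL. Over all 32674 annotated sites 1.42% were called, 1.24% lower and 0.181% higher, so the exonic share was below the background. The test was a logistic regression on read counts with overdispersion moderated across sites, adjusted by Benjamini-Hochberg over all annotated sites. An offset for each library takes out any shift shared by all sites. With it, 11 of the 1011 exonic sites were called, 1 lower and 10 higher. Over all annotated sites 399 (1.22%) were called so, 240 lower and 159 higher. The exonic count also turned on single libraries. Leaving out SNL 1, SNL 2 or SNL 3 gave 7, 0 and 1 exonic calls. Without Sham 1, Sham 2 or Sham 3 there were 2, 5 and 0. Over all 32674 annotated sites the count moved too. It was 522, 236 and 270 without SNL 1 to 3, and 292, 251 and 117 without Sham 1 to 3. An unmoderated F test and limma called 0 exonic sites, with 45 and 102 at an unadjusted p under 0.05. Both also called 0 of all 32674 annotated sites, with 1968 and 3480 at an unadjusted p under 0.05, so the 0 does not set exonic sites apart.

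Less strict measures gave exonic shares somewhat lower than the background. At an unadjusted p under 0.05 the moderated test had 102 exonic sites (10.1%; 57 lower and 45 higher), against 13.1% of all annotated sites. The 3 SNL and the 3 Sham libraries did not overlap at 161 exonic sites (15.9%; 88 lower and 73 higher), against 17.8% of all. A difference of at least 10 points was seen at 13 exonic sites (1.29%), against 1.92% of all. The median difference was -0.2 points at exonic sites, -0.55 at intronic, -0.89 at intergenic and -0.55 at all annotated sites. Lower values after SNL were found at 54.7% of exonic sites, and at 60.1% of intronic, 65.3% of intergenic and 61.3% of all sites. The authors' deposited table gave 30 exonic sites a q-value under 0.05 (2.97%; 17 lower and 13 higher), against 4.54% of all annotated sites.

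The share of calls differed with level. All 4 exonic calls had a mean of 20 to 80%, where 1.78% of the 225 exonic sites were called, against 3.27% of intronic, 2.95% of intergenic and 3.15% of all annotated sites of that level. Over 80%, 0 of 740 exonic sites were called by the moderated test, against 0.703% of all sites of that level. The difference in call rates was not tested.

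**Figure D3:**
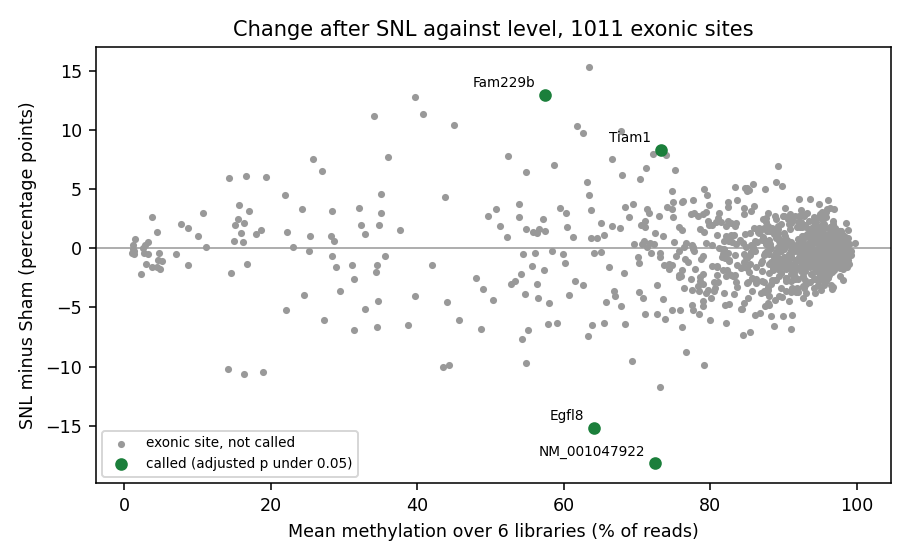
Difference SNL minus Sham (points) against mean methylation over the 6 libraries (percent) for the 1011 exonic sites, with the 4 called sites in green. Differences span -18.2 to 15.3 points and are widest at intermediate levels. Below 20% and above 80% no site was called.

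The largest called difference lay 20 kb downstream of the start of the transcript NM_001047922, for which no symbol was matched (chromosome 11, position 62048711, rn4). Its methylation was 62.10%, 62.62% and 65.35% in SNL 1 to 3, and 78.30%, 84.48% and 81.82% in Sham 1 to 3. All SNL values were below all Sham values, and the highest SNL value was lower than the lowest Sham value by more than the range within either group. The site fell by 18.18 points ± 2.05 (SE), from 81.53% ± 3.10 to 63.35% ± 1.75 (SD, n = 3; adjusted p = 0.0191, 101 to 124 reads). With so few reads the widest 95% Wilson interval of a single value spanned 18.3 points, which covers counting error only. A CpG 38 bp away, read at 101 reads or more, stood at 88.5% ± 1.8 and 90.7% ± 3.3.

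Egfl8, which encodes a secreted protein with EGF-like domains, was nearest to the other lower call, at -1.6 kb from its start (chromosome 20, position 4233866). This site carried the intron flag as well. Its levels were 60.32%, 51.91% and 57.30% in SNL 1 to 3, and 75.71%, 68.25% and 71.19% in Sham 1 to 3. The groups did not overlap, though they spread over several points within each. The site fell by 15.20 points ± 3.28 (SE), from 71.71% ± 3.76 to 56.51% ± 4.26 (SD, n = 3), at 177 to 211 reads per library (adjusted p = 0.0345). With library offsets the adjusted p was 0.0538, so this call was lost. The neighbouring CpG 33 bp downstream stood at 91.7% ± 3.9 and 90.0% ± 1.9.

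The largest called rise lay 19.5 kb from the start of Fam229b (chromosome 20, position 43260486). Methylation was 62.68%, 65.03% and 64.19% in SNL 1 to 3, and 45.95%, 56.25% and 50.90% in Sham 1 to 3. The SNL libraries lay close together and above the more widely spread Sham libraries. The site rose by 12.93 points ± 3.05 (SE), from 51.03% ± 5.15 to 63.97% ± 1.19 (SD, n = 3; adjusted p = 0.021, 256 to 351 reads). The 3 other exonic CpGs within 25 bp had SNL means higher by 5.9, 1.7 and 7.6 points.

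Tiam1, an exchange factor that activates the small GTPase Rac1 and so acts on the actin cytoskeleton, had the other called rise, 128.9 kb downstream of its start (chromosome 11, position 30252673). Its levels were 78.32%, 76.48% and 77.43% in SNL 1 to 3, and 67.68%, 72.18% and 67.45% in Sham 1 to 3. All SNL values exceeded all Sham values. The site rose from 69.10% ± 2.67 to 77.41% ± 0.92 (SD, n = 3), by 8.31 points ± 1.63 (SE; adjusted p = 0.0436, 381 to 452 reads). Of the 6 fits that leave out 1 library, 3 called the NM_001047922 site, 2 the Fam229b site, 1 the Egfl8 site and 1 the Tiam1 site. Without SNL 2 and without Sham 3, 0 of the 4 were called, while the direction of each held in all 6 fits.

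Another 7 genes had at least 1 site with no overlap and a difference of at least 10 points that did not pass the adjusted test. In all, 11 exonic sites in 10 genes had no overlap and at least 10 points (1.09%, with 6 lower and 5 higher), against 1.57% of all annotated sites. The called Tiam1 site, at 8.31 points, was not among them. Psrc1, which encodes a microtubule-associated protein of the mitotic spindle, stood at 46.67%, 44.32% and 47.40% in SNL 1 to 3 and at 31.21%, 34.34% and 34.59% in Sham 1 to 3 (12.75 points, adjusted p = 0.0545, 159 to 240 reads). Fkbp4, a co-chaperone of Hsp90 in steroid receptor complexes, stood at 72.88%, 67.88% and 72.58% against 51.94%, 63.64% and 51.88% (15.30 points, adjusted p = 0.0791). Both sites were higher in every SNL library than in any Sham library, and both passed with library offsets (adjusted p = 0.028 and 0.0442).

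A further 4 sites were farther from the threshold, and in each the groups did not overlap. Those named by Arpp19, Cxcl16 and Kcnrg lay upstream, at -26.1, -6.5 and -2.9 kb from these starts. Their exon flag must therefore refer to another transcript. The site nearest to Arpp19, the gene of a phosphoprotein that inhibits the phosphatase PP2A, stood at 74.10%, 61.59% and 65.91% in SNL 1 to 3 and 79.28%, 78.53% and 79.07% in Sham 1 to 3 (-11.76 points, adjusted p = 0.133). The site nearest to Cxcl16, a membrane-bound chemokine, stood at 42.31%, 35% and 41.67% against 31.65%, 31.25% and 22.46% (11.21 points, adjusted p = 0.21). The site nearest to Kcnrg, whose product regulates potassium channels, stood at 40.37%, 38.55% and 36.52% against 49.63%, 50.91% and 44.90% (-10.00 points, adjusted p = 0.219). The site of Angel1 stood at 71.19%, 64.17% and 65.58% against 56.34%, 56.41% and 57.14% (10.35 points, adjusted p = 0.225). At Arpp19 the spread lay mostly within SNL and at Angel1 likewise, whereas the 3 Sham values were within 1 point of each other.

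**Figure D4:**
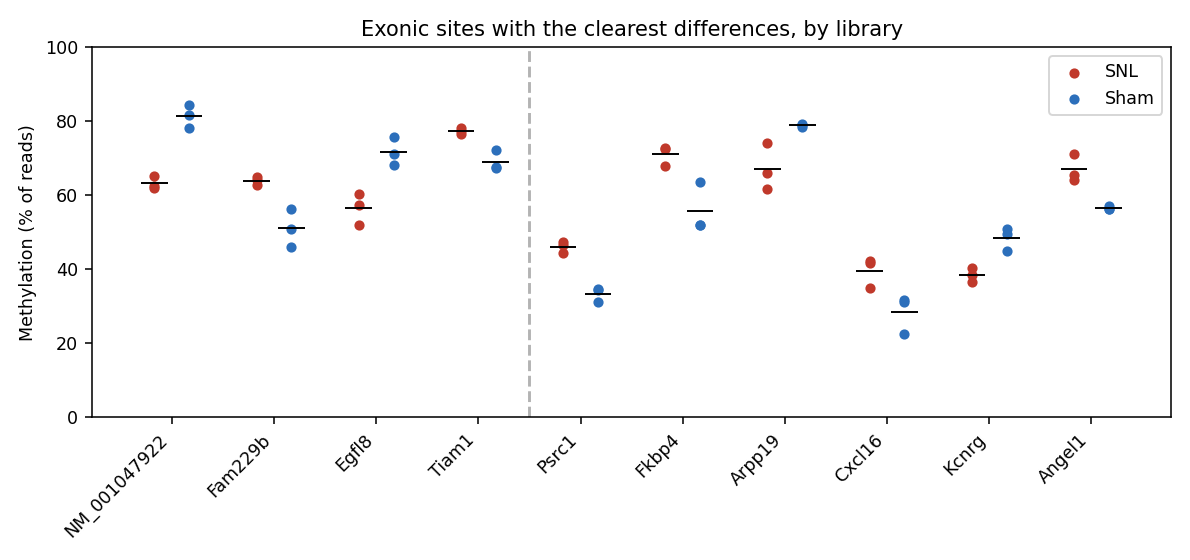
Methylation (percent of reads) in each library at 10 named exonic sites, SNL in red and Sham in blue, with bars at the group means. The 4 sites left of the dashed line are called, and the 6 to its right have no overlap and a difference of at least 10 points. At the NM_001047922 site all SNL libraries are below 66% and all Sham libraries above 78%.

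Neighbouring exonic CpGs mostly had like levels. Over the 500 pairs within 50 bp the median gap in level was 3.4 points, and the levels correlated at 0.92 (Pearson's r across pairs). The SNL minus Sham differences of these pairs correlated at 0.47 and had the same sign in 59.8% of pairs. Such pairs share reads, and 1 pair lies 1 bp apart, so these values describe the sites and are not independent evidence. Of 133 runs of 3 or more exonic sites with gaps of at most 100 bp, 43 had all differences in 1 direction. The 4 runs described next were picked by the lowest p, SNL against Sham, of the reads summed over their gene's exonic sites. That choice favours a shared direction and little overlap along a run.

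The clearest run was that of Tiam1, 4 exonic CpGs over 22 bp (chromosome 11, positions 30252655, 30252661, 30252673 and 30252677). Mean methylation was 77.14%, 77.89%, 77.41% and 78.53% after SNL, and 72.34%, 70.03%, 69.10% and 71.89% in Sham. The SNL libraries stood above the Sham libraries at all 4 CpGs, by 4.80, 7.86, 8.31 and 6.64 points (adjusted p = 0.317, 0.0632, 0.0436 and 0.123). In the Sham group, library 2 was the highest at each of them.

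Ndst2, an enzyme that sulfates heparan sulfate, held a run of low level, with 3 CpGs over 24 bp on chromosome 15. Its means were 22.35%, 19.74% and 17.34% after SNL and 16.30%, 13.62% and 11.37% in Sham, a gap of 5.96 to 6.11 points, with overlap only at the CpG in the middle. Rin1, a Ras effector that acts on Rab5 in endocytosis, had 3 CpGs over 14 bp on chromosome 1 at 55.91%, 79.79% and 59.55% after SNL and 62.26%, 82.05% and 66.97% in Sham. The middle CpG, the most methylated, differed by -2.25 points, and the outer ones by -6.35 and -7.42. Dynlt5, which encodes a dynein light chain, had 3 CpGs over 42 bp on chromosome 5, with differences of -1.47, -3.08 and -5.15 points and no overlap at any. None of these 9 sites passed the adjusted test (adjusted p from 0.143 to 0.661).

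**Figure D5:**
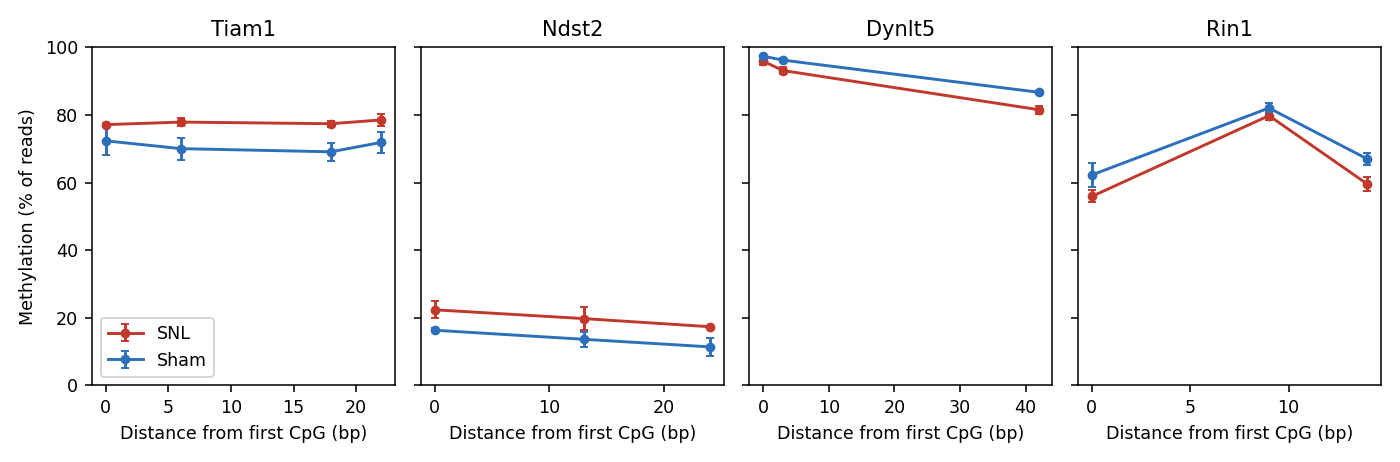
Mean methylation (percent of reads, bars SD, n = 3) at each exonic CpG of 4 runs, against its distance in bp from the first CpG of the run, SNL in red and Sham in blue. SNL lies above Sham at all CpGs of Tiam1 and Ndst2 and below it at all CpGs of Dynlt5 and Rin1. The runs were picked by the lowest p of their gene's exonic sum, which favours such agreement.

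Read counts were also summed over the exonic sites of each gene, and 0 of the 489 sums passed the moderated test, adjusted over the 10862 sums of all genes and site classes, of which 1.1% passed. At an unadjusted p under 0.05 there were 43 exonic sums (8.79%; 26 lower and 17 higher), against 14.2% of all sums. The unmoderated F test and limma also called 0 exonic sums, where they called 0 and 5 of all 10862 sums. Neighbouring sites share reads, so a sum can count a read more than once, and 199 of the sums hold a single site.

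Tiam1 was nearest to the threshold, at 78.64%, 77.14% and 77.45% in SNL 1 to 3 and 69.45%, 74.54% and 68.52% in Sham 1 to 3 (77.74% ± 0.79 and 70.84% ± 3.24, SD, n = 3; adjusted p = 0.0568). It passed with library offsets (adjusted p = 0.0255). Of the fits that leave out 1 library, only that without Sham 2 called it. The other 4 sums with higher SNL values and the lowest p were Psrc1 (1 site), Ndst2 (6.04 points), Fam229b (7.02 points) and Fkbp4 (12.88 points), with adjusted p from 0.094 to 0.129. On the lower side NM_001047922 stood at 75.92% ± 0.81 and 86.11% ± 2.74 and Ccdc146, a coiled-coil protein gene, at 79.51% ± 0.6 and 85.65% ± 1.75 (SD, n = 3; adjusted p = 0.0894 and 0.091). Dynlt5 differed by -3.22 points and Rin1 by -5.34 (adjusted p = 0.105 and 0.12). In these sums the groups did not overlap, which a low p selects for.

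The genes with the most exonic sites showed how uniform or varied a gene's exonic sites can be. Meis1, a homeobox transcription factor of the TALE class, had 9 sites. One of them, 137.5 kb from the start, stood at 96.6% over the 6 libraries, while the 8 others, about 4.0 kb from it, spanned 49.0 to 75.7%. One of these 8, at position 99828235 of chromosome 14, stood at 54.97%, 54.47% and 54.32% in SNL 1 to 3 and at 63.02%, 56.89% and 63.06% in Sham 1 to 3. The groups did not overlap there, and the difference of -6.40 points did not pass (adjusted p = 0.06, 888 to 1164 reads). Without Sham 2, the library nearest to SNL, it was -8.45 points and passed (adjusted p = 0.0136). No other fit that left out 1 library called it.

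Prss35, a serine protease family member, also had 9 sites, in clusters 13.7 and 48.3 kb from its start. In the first cluster 5 of 6 CpGs had mean levels of 91.4 to 98.2%, and the sixth, at position 92023277 of chromosome 8, had 55.1%. That CpG stood at 52.00%, 52.80% and 50.00% in SNL 1 to 3, and at 50.88%, 72.80% and 51.85% in Sham 1 to 3. Sham 2 alone was above 53%.

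Uniformly high genes were Pdzrn4 (7 sites, 94.0 to 98.2%), Smarca2, an ATPase of the SWI/SNF chromatin remodelling complex (6 sites, 93.6 to 98.9%), and the transcript NM_001047844 (6 sites, 95.4 to 98.2%). Wider ranges were found in Fam120b (81.2 to 99.1%), Pakap (87.8 to 96.2%), Tes, a LIM domain protein of focal adhesions (71.8 to 90.1%), and NM_001107342 (65.5 to 92.7%), each with 6 sites.

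The 46 exonic sites under 20% lay in 23 genes, and in 17 of these every exonic site was low. Their median distance to the start was 11.4 kb, and 20 of them were under 5%. The lowest lay upstream of Samd14, at -5.4 kb from its start (chromosome 10, position 83690390). It stood at 0.87%, 0.98% and 0.71% in SNL 1 to 3 and 1.26%, 1.15% and 1.37% in Sham 1 to 3. These values did not overlap, yet the difference of -0.41 points did not pass (adjusted p = 0.644, 792 to 1127 reads). The 6 lowest sites also included those of Zfp608, a zinc finger protein gene (1.23%), Ppp2r2b, a regulatory subunit of the phosphatase PP2A (1.39%), Itga10, a collagen-binding integrin (1.52%), and the transcript NM_001107638 (2.62%). Lima1, an actin-binding protein, and Samd14 had 4 low sites each, and the homeobox gene Emx2, Ceacam6 and Ndst2 had 3 each. Of the 46 low sites 0 passed the moderated test, where 0.453% of all annotated sites under 20% did. An unadjusted p under 0.05 was found at 6 (13%) and no overlap between groups at 9 (19.6%). Among all annotated sites, which are of every level, the shares were 13.1% and 17.8%. A difference of at least 10 points was found at 6.52% of the 46 low sites, against 0.315% of all annotated sites under 20%. With so few sites, some of them neighbours, this gap in shares was not tested.

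Gene groups linked to the ganglion and to injury held few exonic sites, and 0 sites and 0 sums passed in any of the 17 lists. With backgrounds of 1.42% of all annotated sites, 0.396% of exonic sites and 1.1% of all sums, a count of 0 in lists of this size sets none of them apart. For comparison, the median difference was -0.55 points over all annotated sites and -0.2 points over all exonic sites. The genes named from a list, here and below, are those with the lowest p of their exonic sums, so they are not typical members. The sodium, calcium, HCN and TRP channel genes had 10 exonic sites in 5 of 31 genes, with 3 lower, 7 higher and a median difference of 1.1 points. Scn3b, an auxiliary sodium channel subunit, stood at 96.16% ± 0.35 and 95.12% ± 0.69 (SD, n = 3; adjusted p = 0.522), Scn2a averaged 87.6% and Scn10a, the Nav1.8 channel of nociceptors, 93.6% over all libraries. Potassium channel genes had 14 sites in 3 of 55 genes, with 10 lower, 4 higher and a median of -1.4 points. Kcnh1 stood at 89.89% ± 1.94 and 91.22% ± 0.83 (adjusted p = 0.551), while Kcnk5 averaged 90.2%. For neurotransmitter receptors only Chrna6, a nicotinic receptor subunit, had exonic sites, 2 at a mean of 92.0%.

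The sensory neuron identity list had 5 exonic sites in 2 of 19 genes, 3 lower and 2 higher after SNL. Nefh, the heavy neurofilament subunit of large myelinated neurons, held 3 of them, and their sum was 90.11%, 87.67% and 85.42% in SNL 1 to 3 and 92.47%, 90.64% and 90.82% in Sham 1 to 3. The groups did not overlap, and the difference of -3.57 points ± 1.47 (SE) did not pass (adjusted p = 0.136, 1845 to 2401 reads). Without SNL 1, the SNL library closest to Sham, the sum passed the moderated test (adjusted p = 0.0334). It did not pass when any other library was left out (adjusted p from 0.223 to 0.356). Without SNL 1 the calls among all sums also rose, from 120 to 223. Etv1, a transcription factor of proprioceptive neurons, stood at 82.15% ± 2.92 and 81.72% ± 2.26 (SD, n = 3; adjusted p = 0.929), a difference whose sign changed without SNL 2, Sham 1 or Sham 3 and that was 0 without SNL 1. In the injury and regeneration list Gap43, a growth cone protein, was the single gene with exonic sites. Its 2 sites summed to 85.32%, 85.00% and 78.85% in SNL 1 to 3 and 89.29%, 86.01% and 86.97% in Sham 1 to 3. All SNL values were below all Sham values, and the difference of -4.36 points did not pass (adjusted p = 0.368).

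Cell type lists were thin as well. Schwann cell and myelin genes had 0 exonic sites in 15 annotated genes. Satellite glia were represented by Slc1a3, a glutamate transporter, with 3 sites at a mean of 88.8% (89.11% ± 1.5 and 88.4% ± 0.84, SD, n = 3; adjusted p = 0.788). Leukocytes had 1 site, that of Ptprc (CD45), at 66.6%, and fibroblasts and endothelium had 2, those of Col3a1 at 70.3%. With so few sites these lists say nothing of the share of any cell type in the libraries.

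Other gene families varied mainly in level. Homeobox and SOX factors had 12 exonic sites in 3 of 73 genes, 10 lower and 2 higher after SNL with a median difference of -1.94 points, and 9 of the 12 belong to Meis1, whose sum stood at 60.11% ± 1.96 and 63.05% ± 3.89 (SD, n = 3; adjusted p = 0.48). Zinc finger genes had 17 sites in 8 of 89 genes with a median level of 96.5%, the highest median of the lists, and a lowest site at 1.2% in Zfp608. Solute carriers, the list with the most exonic sites, had 36 in 18 of 173 genes, 20 lower and 16 higher. Cadherins and protocadherins had 14 sites in 5 of 34 genes, 8 lower and 6 higher. Among these Cdh9 stood at 90.11% ± 1.03 after SNL and 92.72% ± 1.4 in Sham, Pcdhgc3 at 77.7% ± 4.02 and 74.03% ± 1.16, and Pcdhga9 at 24.96% ± 1.3 and 23.44% ± 0.57 (adjusted p = 0.339, 0.451 and 0.575). Collagens, laminins and integrins had 12 sites in 7 of 35 genes with levels from 1.5 to 94.6%, 6 lower and 6 higher with a median difference of -0.11 points. Col9a1 stood at 83.26% ± 2.03 after SNL and 88.88% ± 3.03 in Sham, and Col9a2 at 53.03% ± 2.28 and 51.1% ± 4.72 (SD, n = 3; adjusted p = 0.29 and 0.706). Without Sham 1 the Col9a2 difference was -0.77 points. Giant structural and motor proteins had 2 sites in 1 of 27 genes. Olfactory receptors and the DNA methylation and demethylation enzymes had 0 exonic sites.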

How the data were processed

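RRBS libraries of 3 SNL and 3 Sham DRG samples were used. Per the submitters' processing notes, Bismark 0.18.1 with Bowtie2 aligned the reads and methylKit 1.3.3 analysed them, on rn4, while the labels' protocol names a human assembly. Coordinates are those of the files. Per the file headers, each library's file gives a read count (coverage) and the percent of C per cytosine. The table the authors deposited gives percent methylation, p-value and q-value, flags, and distance to the nearest start. What settings that test had was not given in the sources used here. Strand is not recorded.

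Methylated counts were computed as coverage times percent C. Each of 32674 sites was fitted by logistic regression on group. The overdispersion, estimated from the Pearson chi-square with 4 degrees of freedom, was moderated with limma 3.58.1 squeezeVar in R 4.3.3, leaving 6 sites with no spread out of the prior, and kept at 1 or above. P-values from a two-sided F test were adjusted over all sites (Benjamini-Hochberg, threshold 0.05). Gene sums were tested alike, and class means by exact permutation (20 arrangements) or sign flips in Python 3.11.15. On simulated data of 32674 sites the site test recovered 32% of 100 exonic sites lowered by 10 points. It recovered 90% of 100 lowered by 20 points, with 9 false calls among the sites left unchanged. The lowered sites were drawn with the least and the most methylated exonic sites left out, and the overdispersion was shuffled across sites. The recovered shares therefore do not cover exonic sites at either end of the scale. RefSeq accessions were matched to symbols by a GRCr8 table, used for names only (464 of 490 exonic transcripts, 951 of 1011 sites).

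The members and lists were chosen with earlier results of these data known. Named are called sites, sites with no overlap and at least 10 points (1 per gene), the 5 sums with the lowest p per direction, the genes with most sites (10 with ties), the 6 lowest sites, up to 3 genes per list, and 4 runs. The genes of a list and the runs were taken by the lowest p of their exonic gene sum. The Meis1 and Prss35 sites with library values were chosen after their values were seen. Alternatives were library offsets, a replicate block, unmoderated and robust moderation, limma, other coverage minimums, 1 site per window of 1000 bp, and leaving out each library. Mitochondrial sites were left out. A few genes that meet these rules are counted but their own values are left out here.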

Additional observations from a re-analysis of the deposited data

How the results depend on the processing

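Few exonic calls, and depth, limit what can be said. The number of called exonic sites was 4 as reported, 11 with library offsets, and 0 with the unmoderated F test and with limma. It was 13 with robust moderation (chosen after seeing the data), and 0 to 7 without 1 library. At coverage of 200 reads or more 1 of 398 exonic sites was called. When all sites with 20 reads or more were tested together, 10 exonic sites were. Over all 32674 annotated sites the calls were 464 as reported, 399 with library offsets, 797 with robust moderation and 117 to 522 without 1 library. The unmoderated F test and limma called 0 of them. At coverage of 200 the calls were 240 of 13554 sites, and at 20 reads 1153 of 210270. The called exonic sums numbered 0 as reported, and 1 each with library offsets, robust moderation and coverage of 200 (Tiam1) and with 1 site per window (NM_001047922), and 0 to 1 without 1 library. Of all 10862 sums 120 were called as reported, 108 with library offsets, 176 with robust moderation and 28 to 223 without 1 library. At coverage of 200 the calls were 143 of 5994 sums, and with 1 site per window 170 of 10781. Over 140 alternatives of the 11 named sites the direction turned 0 times. A called site lost its call 31 times and an uncalled one gained it 9 times. Of 352 alternatives of the named sums, 7 turned or reached 0, Chrna6 with 1 site per window (-0.46 points), Slc1a3 without SNL 1 (-0.14 to 1.25 without 1 library), Etv1 without SNL 1, SNL 2, Sham 1 or Sham 3 (-0.77 to 2.06) and Col9a2 without Sham 1 (-0.77 to 3.57).

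Small mean differences changed sign. For sites of 20 to 80% the difference was 0.43 points at coverage of 200 and 0.05 with the level taken from Sham alone, and at 5 to 20 kb it was 0.04 at coverage of 200. The exonic minus intronic change was -0.09 points within 5 kb and -0.12 points among sites under 20%, where the exonic minus intergenic change was -0.01 points. In that level class the gaps themselves were -0.09 and 0.33 points (exact sign-flip p = 0.65625 and 0.09375). Without 1 library the differences spanned -0.45 to 0.33 for sites under 20%, -0.85 to 0.19 for 20 to 80%, -0.52 to 0.04 at 5 to 20 kb, -0.61 to 0.02 at 20 to 100 kb and -0.07 to 0.66 beyond 100 kb. The exonic minus intronic level was 5.24 to 5.41 and the exonic minus intergenic level 6.18 to 6.43 points without 1 library (exact sign-flip p = 0.0625, the smallest that 5 libraries allow). The cause of these changes was not tested. The changes of these gaps after SNL kept their sign under the other alternatives, at 0.35 to 1.43 points against intronic and 0.13 to 1.8 points against intergenic sites.

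The replicate numbers showed no clear pairing of the libraries. Deviations of same-numbered libraries from their group means correlated at -0.055, 0.256 and -0.135 over all sites. The highest such correlation across the groups was that of SNL 3 with Sham 1, at 0.341. Levels themselves correlated best across the groups for SNL 2 and Sham 2 (0.9909). Deviations are tied to each other within a group of 3, so these values cannot settle whether libraries share an animal. With the number as a replicate block 0 exonic sites were called (91 at an unadjusted p under 0.05) and 0 exonic sums. Of all features, 126 of 32674 sites (3767 at an unadjusted p under 0.05) and 85 of 10862 sums were called so. The changes in both gaps had an exact sign-flip p of 0.25, the smallest that 3 pairs allow.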
